A study of Mus musculus with 8 samples.

Results

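Bile acid synthesis is the main route by which the liver disposes of cholesterol, and 10 genes of this route and of its feedback control were followed in mouse liver. They were chosen by name, as Cyp7a1, Cyp8b1, Cyp27a1, Cyp7b1, Hsd3b7, Akr1d1, Baat, Slc27a5, Nr1h4 and Nr0b2, and all 10 were found among the 46078 Ensembl genes of the count table. RNA-seq was carried out on 5 liver samples of wild-type (WT) mice and 3 of mice labelled Rbfox2 knockout (Rbfox2 KO). The mice had drunk water with fructose at 30% (w/v) for 22 weeks from young adulthood and were fasted before the liver was removed. In the KO mice, loxP-flanked Rbfox2 alleles were deleted by a Cre recombinase driven by the albumin promoter. The study made these mice to inactivate the gene in hepatocytes and not in other liver cells. The labels do not give the alleles, age or sex of the WT mice. By the study's methods the controls carried the loxP-flanked Rbfox2 alleles without Cre, and males were used except where stated. The labels number the samples without saying that each is a separate animal, and each is called a liver here. Rbfox2 encodes an RNA-binding protein that controls alternative splicing. The comparison bears on whether loss of RBFOX2 alters the conversion of cholesterol to bile acids and the farnesoid X receptor (FXR) pathway that controls it.

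In the classical pathway, CYP7A1 hydroxylates cholesterol in the endoplasmic reticulum and sets the rate of synthesis, and CYP8B1 diverts intermediates to cholic acid. In the alternative pathway, CYP27A1 in mitochondria and then CYP7B1 hydroxylate the sterol first. HSD3B7 and AKR1D1 modify the rings in both routes, and SLC27A5 (bile acyl-CoA synthetase) and BAAT attach taurine or glycine. Bile acids activate FXR, the product of Nr1h4, which induces the repressor SHP, the product of Nr0b2. SHP then lowers transcription of Cyp7a1 and Cyp8b1, and a gut hormone, FGF15, acts on the same genes through its receptor FGFR4 on hepatocytes.

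The upstream sequences of the 12α-hydroxylase gene Cyp8b1 and of the repressor gene Nr0b2 are shown because these genes carry the letters of the nuclear receptor LRH-1 (Nr5a2), a common activator of both. RefSeq (GRCm38.p6) had a promoter entry for 6 of the 10 genes. Both windows hold the 250 bases before the transcription start, 5′ to 3′ along the gene. Capitals mark matches to the LRH-1 letters CAAGGNCA, to the HNF4A letters CAAAGTCCA and, near the start, to the hexamer TATAAA at which polymerase II is positioned. AGGTCA, the hexamer that nuclear receptors bind, was also searched, and neither window holds it. The Cyp8b1 window lies at chr9:121916306-121916555 on the minus strand, and the Nr0b2 window at chr4:133553126-133553375 on the plus strand.
Cyp8b1: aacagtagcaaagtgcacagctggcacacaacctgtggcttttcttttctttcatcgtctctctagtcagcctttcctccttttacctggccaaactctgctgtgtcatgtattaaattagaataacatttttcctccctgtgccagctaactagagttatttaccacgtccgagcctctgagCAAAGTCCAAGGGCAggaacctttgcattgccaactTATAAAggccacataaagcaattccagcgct
Nr0b2: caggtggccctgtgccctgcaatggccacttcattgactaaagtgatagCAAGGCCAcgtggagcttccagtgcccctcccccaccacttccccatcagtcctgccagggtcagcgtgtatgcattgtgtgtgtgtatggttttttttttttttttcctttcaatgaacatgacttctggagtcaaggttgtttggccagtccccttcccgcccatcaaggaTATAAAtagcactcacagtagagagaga

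In Cyp8b1 the HNF4A letters spanned bases -67 to -59 from the start and overlapped the LRH-1 letters at -60 to -53. The Nr0b2 match to the LRH-1 letters lay at -201 to -194, and TATAAA lay at -31 to -26 in Cyp8b1 and at -28 to -23 in Nr0b2. Over both strands of all 32851 windows of the same length, 5.53% held the LRH-1 letters, 0.384% the HNF4A letters, 14.0% AGGTCA and 12.4% the last hexamer. Among the 6 genes with an entry, AGGTCA was present in the windows of Akr1d1 and Nr1h4. These matches describe letters and not bound sites.

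RBFOX proteins recognise UGCAUG in RNA, and the transcripts of the 10 genes were searched for it because Rbfox2 is the deleted gene. In the longest protein-coding transcript of each gene in GENCODE M21 (GRCm38), 3 of the 10 held it, once each, against 55.3% of 12695 tested protein-coding genes. Transcript length differed, with a median of 1982 bases in the 10 genes and 3084 bases over the tested genes, and the density was 0.136 sites per kilobase against 0.282. The sites are written as DNA along the transcript with 9 bases on each side, TGCATG in capitals.
Cyp7a1: aaacatgtgTGCATGtgtgtagag
Cyp7b1: gagtaaggcTGCATGtgctgagct
Baat: acagcaaagTGCATGctaatcaag

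The Cyp7a1 site is in the 3′ UTR, in exon 6 of 6, at chr4:6265917-6265922. The Cyp7b1 site is likewise in the 3′ UTR, in exon 6 of 6, at chr3:18072419-18072424, and the Baat site is in the coding sequence, in exon 4 of 4, at chr4:49490074-49490079. All 3 genes are on the minus strand. Introns, where RBFOX proteins often bind, were not searched here.

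Libraries held 24829693 to 37823155 counts, and the 10 genes took 0.167% to 0.230% of them, with no fewer than 622 counts for any gene in any library. Levels are given as CPM, counts divided by library size, scaled by the trimmed mean of M-values (TMM) method. For the deleted gene every KO liver was below every WT liver, with Rbfox2 at 6.84, 8.61 and 12.4 CPM against 13.96 to 23.2 CPM in WT, or a difference of -1.03 ± 0.21 (SE) on the log2 scale (edgeR adjusted p = 0.328). Hepatocyte markers were abundant in every library. One library stood apart: Rbfox2 KO 1 had a sum of 3652 CPM for 7 markers of pericentral hepatocytes against 7152 to 8454 CPM in the others, a sum of 464 CPM for 12 exocrine pancreas genes against 4.78 to 17.1 CPM, and a sum of 245 CPM for 5 stellate cell markers against 139 to 184 CPM. Major urinary protein (Mup) genes took 6.71% of its counts and 35.5% of those of WT 3, the extremes of the 8 libraries. Of the 5 stellate cell markers, Dcn (166 CPM), Col3a1 (37.3 CPM) and Col1a1 (10.5 CPM) were highest in KO 1. Lrat (9.69 CPM) and Reln (21.5 CPM) in KO 1 were within the range of the other libraries. Fewer cells of a type and less RNA per cell cannot be told apart in such bulk samples.

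None of the 10 genes was shown to differ between WT and Rbfox2 KO livers. By edgeR, 0 of 10 passed an adjusted p of 0.05, where 0.0% of the 14654 tested genes did. At an unadjusted p under 0.05 there were also 0 of 10, against 4.74% of tested genes, and DESeq2 called 0 of 10 against 0.409%. Without WT 5, 3 of 10 were under that unadjusted p, where 684 of 14383 tested genes were. The unadjusted edgeR p was then 0.0254 for Cyp7a1, 0.0459 for Hsd3b7 and 0.0495 for Baat, and still 0 of 10 passed the adjusted p. Leaving out any other single library gave 0 of 10 under the unadjusted p. With all libraries, WT and KO values overlapped for every one of the 10 genes, where 3.71% of tested genes did not overlap. The adjusted p by edgeR rounded to 1.0 for each of the 10 genes. The fold changes and 95% intervals that follow therefore bound what a difference could be.

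**Figure D1:**
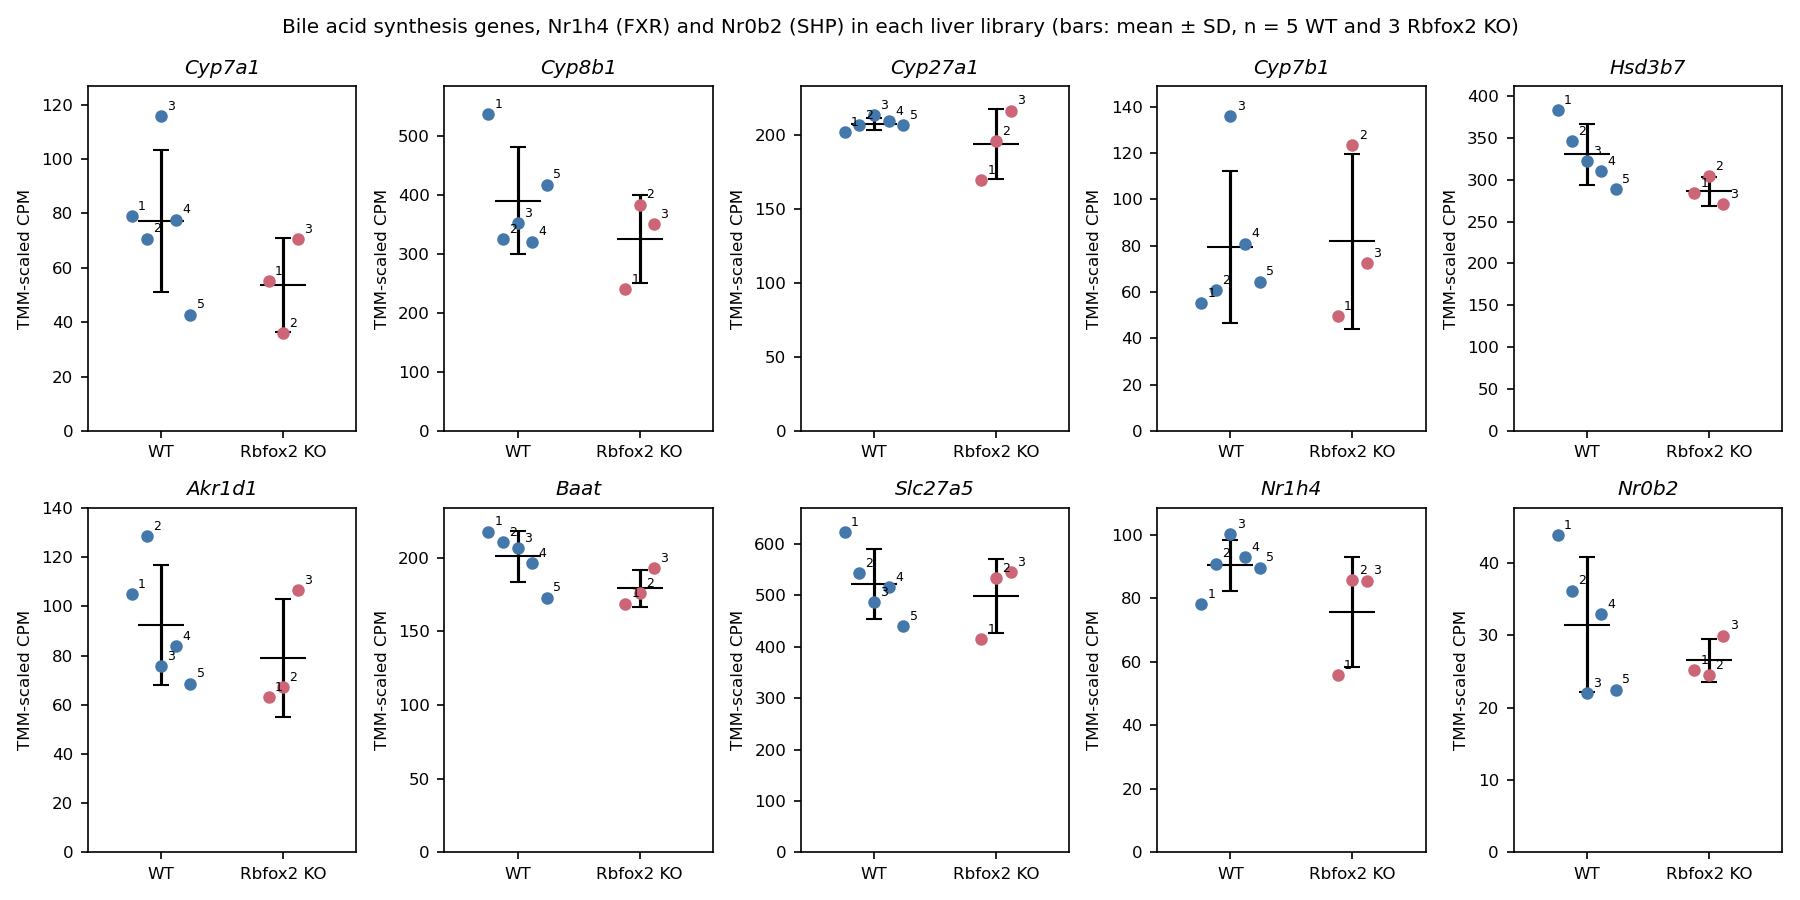
Level of each of the 10 genes in every liver library, in TMM-scaled CPM on a linear axis from 0. Points are libraries with their numbers (blue, 5 WT; red, 3 Rbfox2 KO), and bars show mean ± SD; in every panel the groups overlap, and Rbfox2 KO 1 is the lowest library in 7 of the 10.

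Cyp7a1, the first and rate-setting enzyme of the classical pathway, had the log2 fold change farthest from 0 of the 10. WT livers had 79.0, 70.7, 116, 77.7 and 42.8 CPM, and Rbfox2 KO livers had 55.0, 35.9 and 70.4 CPM. All 3 KO livers were below the WT mean, but only KO 2 was below the lowest WT liver. Means were 77.2 ± 26.0 CPM (SD, n = 5) and 53.8 ± 17.3 CPM (SD, n = 3). This gave a log2 fold change of -0.52 ± 0.31 (SE) and a 95% interval of -1.22 to 0.18, or 0.429 to 1.14 times the WT level. A fall to 0.5 times the WT level and no change both lie inside this interval. Leaving out 1 library moved the fold change between -0.76 without KO 3 and -0.30 without KO 2, and to -0.33 without WT 3, the library with the highest level. The gene lies at chr4:6265612-6275633 on the minus strand.

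Cyp8b1, the sterol 12α-hydroxylase, is a gene of 1 exon at chr9:121914356-121916305, minus strand. Its levels were 537, 326, 352, 321 and 418 CPM in WT and 241, 383 and 351 CPM in KO. WT 1 was well above the other WT livers, and KO 1 was the lowest library, while KO 2 and KO 3 lay within the WT range. The means of 391 ± 90.4 CPM (SD, n = 5) and 325 ± 74.8 CPM (SD, n = 3) gave a log2 fold change of -0.27 ± 0.20 (SE) and a 95% interval of -0.72 to 0.19. Without KO 1 the log2 fold change was -0.10.

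Of the alternative pathway, Cyp27a1 (chr1:74713574-74737892, plus strand) varied least of the 10 genes over the WT livers with TMM scaling. WT livers had 202, 207, 214, 209 and 207 CPM and KO livers had 169.8, 196 and 217 CPM. KO 1 and KO 2 fell below the narrow WT range and KO 3 above it. Its log2 fold change was -0.10 ± 0.10 (SE) with a 95% interval of -0.32 to 0.12, so that a level outside 0.801 to 1.09 times that of WT was outside the interval. Without KO 1 the fold change was -0.02.

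Cyp7b1, the oxysterol 7α-hydroxylase (chr3:18071950-18243338, minus strand), had the widest interval. Its levels were 55.2, 60.9, 136, 80.8 and 64.5 CPM in WT and 49.6, 123 and 72.5 CPM in KO. In each group 1 library, WT 3 and KO 2, was far above the rest. Cyp7b1 had a log2 fold change of 0.04 ± 0.37 (SE) with a 95% interval of -0.80 to 0.88, and the sign changed when KO 2 was left out (-0.38). Without KO 1 it was 0.30. Cyp7b1 is expressed more in male than in female mouse liver, and the summed level of 6 other male-predominant genes ran from 2818 to 9180 CPM in WT and from 4966 to 6295 CPM in KO. That of 6 female-predominant genes ran from 17.5 to 118 CPM in WT and from 12.5 to 55.6 CPM in KO. WT 3 had the highest male-predominant and the lowest female-predominant sum in WT, and KO 2 the highest of both in KO. Mup20 made up most of the male-predominant sum, with 4596 of the 4966 CPM in KO 1. Of the other male-predominant genes, Cyp2d9 (148 CPM), Elovl3 (66.6 CPM) and Hsd3b5 (0.314 CPM) were lowest of all libraries in KO 1. Cyp4a12a (89.5 CPM) and C6 (64.6 CPM) were not. The part of sex-biased expression in the Cyp7b1 values was not tested.

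The ring-modifying enzymes were compared next. Hsd3b7, the dehydrogenase that acts after the 7α-hydroxylases, lies at chr7:127800604-127803802 on the plus strand. In GENCODE M21 its exons overlap those of a read-through gene and of a gene on the other strand. Neither of those genes is in the count table, and whether any of their reads entered the Hsd3b7 count is not known. Hsd3b7 had 383, 346, 322, 311 and 289 CPM in WT and 284, 304 and 270.4 CPM in KO. KO 1 and KO 3 were below the lowest WT liver and KO 2 was within the WT range. The log2 fold change was -0.21 ± 0.11 (SE) with a 95% interval of -0.46 to 0.05 and an unadjusted edgeR p of 0.0993, the smallest of the 10 genes. It was -0.21 without KO 1 as well. Hsd3b7 and Cyp7a1 were the genes whose fold change moved least when KO 1 was left out.

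Akr1d1, the 5β-reductase (chr6:37530173-37568815, plus strand), had 105, 129, 75.6, 83.9 and 68.6 CPM in WT and 63.0, 67.2 and 107 CPM in KO. WT 1, WT 2 and KO 3 were high and the other libraries were close together. Akr1d1 had a log2 fold change of -0.22 ± 0.24 (SE), with a 95% interval of -0.76 to 0.31, and -0.09 without KO 1.

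The conjugation enzymes were read in the same way. Baat, which joins the activated bile acid to taurine or glycine, lies at chr4:49489422-49506557 on the minus strand. It had 218, 211, 207, 196 and 173 CPM in WT and 169, 176 and 193 CPM in KO. KO 1 was just under the lowest WT liver, WT 5. The log2 fold change was -0.16 ± 0.11 (SE), with a 95% interval of -0.40 to 0.07, and -0.13 without KO 1. Slc27a5, the ligase of the preceding step (chr7:12988346-12998192, minus strand), had 622, 544, 487, 515 and 439.7 CPM in WT and 415, 534 and 546 CPM in KO. Only KO 1 was outside the WT range. Its log2 fold change was -0.07 ± 0.14 (SE), with a 95% interval of -0.38 to 0.25, and the sign changed without KO 1 (0.04) and with library totals in place of TMM factors (0.03).

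Nr1h4, the gene of FXR, lies at chr10:89454234-89533585 on the minus strand. It had 78.1, 90.8, 100.2, 92.9 and 89.6 CPM in WT and 55.7, 85.8 and 85.5 CPM in KO. KO 1 was far below the other 7 libraries, and KO 2 and KO 3 were within the WT range. For Nr1h4 the log2 fold change was -0.26 ± 0.15 (SE), with a 95% interval of -0.59 to 0.07, and -0.08 without KO 1. Nr0b2, the gene of SHP (chr4:133553376-133556536, plus strand), had 43.8, 36.1, 22.0, 32.9 and 22.5 CPM in WT and 25.2, 24.5 and 29.9 CPM in KO. All 3 KO livers lay inside the WT range, above WT 3 and WT 5. For Nr0b2 the log2 fold change was -0.24 ± 0.22 (SE), with a 95% interval of -0.74 to 0.25, and -0.21 without KO 1. Without WT 1, the library with the highest Nr0b2, it was -0.10.

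**Figure D2:**
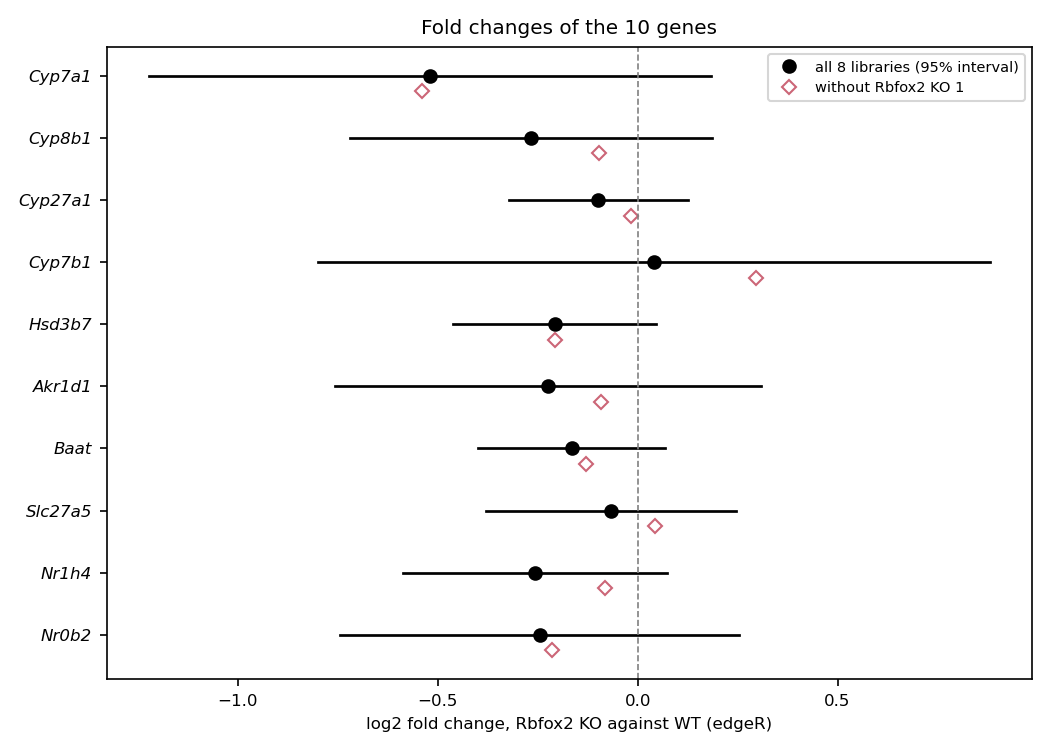
Log2 fold change of each gene in Rbfox2 KO against WT livers by edgeR (black points) with 95% intervals (lines), and the value without Rbfox2 KO 1 (open diamonds). All 10 intervals include 0, and 9 of the 10 points lie below 0.

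Point estimates leaned the same way. In 9 of 10 genes the log2 fold change was below 0, as in 49.8% of all tested genes, and the median of the 10 was -0.22 against 0.00095 over all tested genes. KO 1 was the lowest of the 8 libraries for 7 of the 10 genes and WT 1 the highest for 5. Without KO 1 the median of the 10 was -0.09, with 8 of 10 below 0 and 53.2% of all tested genes below 0. Without WT 1 that median was -0.13, with 9 of 10 and 49.1% of all tested genes below 0. The position of KO 1 also changed with the scaling. With library totals it was lowest for 1 of the 10 genes and WT 3, with the highest Mup share, for 5. Under that scaling the median of the 10 was -0.12, that of all genes shifted to 0.12, and 8 of the 10 were below 0, as were 26.2% of all tested genes. Counts of genes that share libraries are a description, and the part of the pericentral markers, the pancreatic genes or the Mup genes in these values was not tested.

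Count ratios within a library do not depend on scaling, and 5 of them were compared to ask whether the balance of the routes differed. Differences are KO minus WT means of log2 ratios, each with a two-sided exact permutation test over the 56 ways to label 5 WT and 3 KO libraries, whose smallest possible p is 0.0179, adjusted over the 5 ratios. The ratio of Cyp8b1 to Cyp7a1, cholic acid branch against first step, was 6.79, 4.61, 3.04, 4.13 and 9.76 in WT and 4.38, 10.7 and 4.98 in KO. KO 2 and WT 5, the livers with the lowest Cyp7a1, were highest. The difference was 0.24 (exact permutation p = 0.571, adjusted 0.714), and it turned to -0.16 without KO 2.

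The ratio of Cyp7b1 to Cyp7a1, alternative against classical 7α-hydroxylase, was 0.698, 0.862, 1.17, 1.04 and 1.51 in WT and 0.901, 3.43 and 1.03 in KO. KO 2 was well above every other library, and the remaining KO livers lay within the WT range. The difference of 0.53 (exact permutation p = 0.411, adjusted 0.685) turned to -0.08 without KO 2. The ratio of Cyp27a1 to Cyp7a1 was 2.56, 2.93, 1.85, 2.70 and 4.84 in WT and 3.09, 5.46 and 3.08 in KO. Except for WT 5, every WT liver was below every KO liver. The difference was 0.40 (exact permutation p = 0.286, adjusted 0.685). Without WT 5 it was 0.59. Leaving out that liver removed the only overlap, which by itself fixes the unadjusted exact permutation p at 0.0286, the smallest that 4 against 3 allow. That p-value therefore adds no support for a difference.

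The conjugation pair and the receptor-repressor pair did not differ beyond their spread. The ratio of Baat to Slc27a5 was 0.350 to 0.424 in WT and 0.329 to 0.407 in KO, a difference of -0.10 (exact permutation p = 0.339, adjusted 0.685). The ratio of Nr0b2 to Nr1h4 was 0.219 to 0.561 in WT and 0.285 to 0.452 in KO, a difference of 0.08 (exact permutation p = 0.839, adjusted 0.839).

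**Figure D3:**
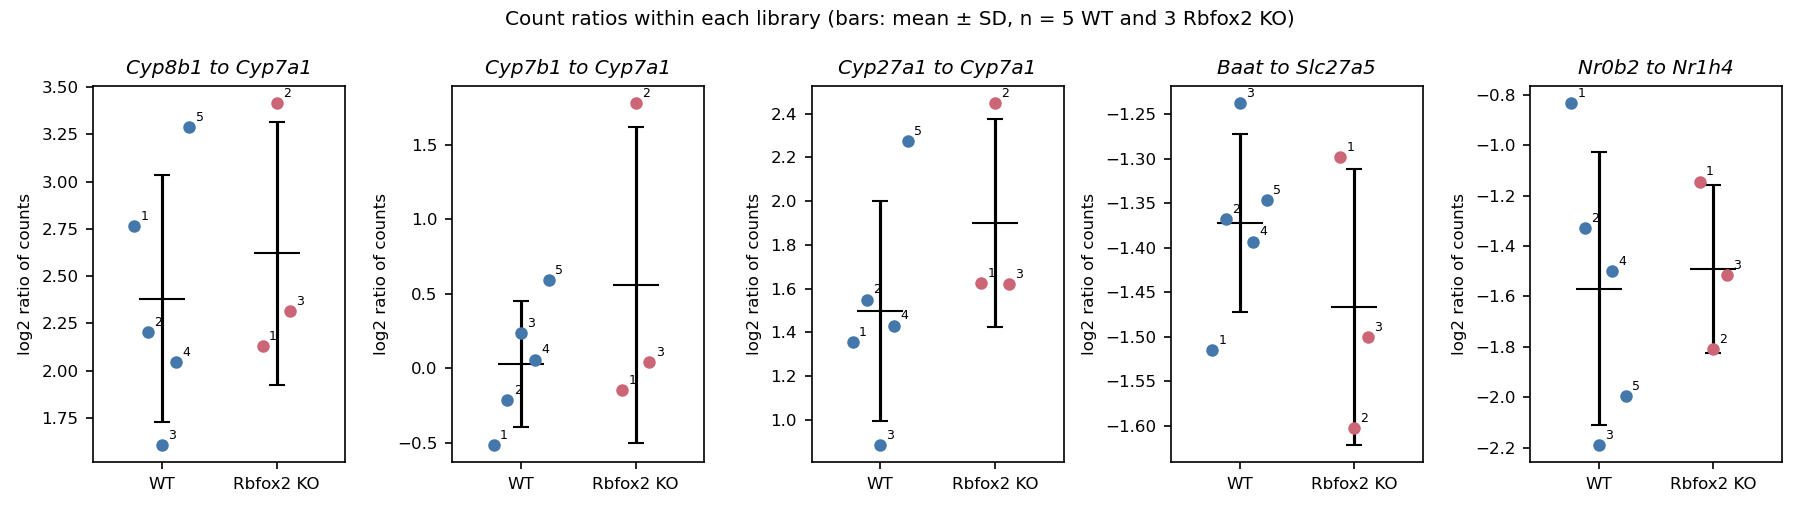
The 5 count ratios in every library on a log2 axis, with 5 WT (blue) and 3 Rbfox2 KO (red) libraries numbered and bars for mean ± SD. Rbfox2 KO 2 is the highest point for the ratios of Cyp8b1, Cyp7b1 and Cyp27a1 to Cyp7a1.

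The genes differed widely in their spread between WT livers. Over the 5 WT livers the coefficient of variation was 41.5% for Cyp7b1, 33.7% for Cyp7a1, 29.7% for Nr0b2, 26.4% for Akr1d1 and 23.1% for Cyp8b1. Among the 6602 genes of at least 10 CPM in WT, the 10 included, these lie between the 91.4th and the 98.5th percentile. The median of the 6602 genes was 11.3%. The spread of Slc27a5 was 13.1% and that of Hsd3b7 10.9%, at the 60.5th and the 47.5th percentile, and Nr1h4 with 8.80% and Baat with 8.67% were at the 33.4th and the 32.4th. Cyp27a1 had 1.97%, at the 0.257th percentile. This last value depended on scaling, since with library totals it was 10.3%, at the 21.0th percentile, and Baat (9.12%) and Nr1h4 (10.2%) were lower. The 5 most variable genes were the same with library totals, at 23.0% to 31.5%. With that scaling they lay between the 83.3rd percentile (Cyp7a1) and the 94.6th (Nr0b2), and the median of the compared genes was 14.8%. Transcription of Cyp7a1 follows the circadian clock, and the hour of collection is not given in the labels. The summed level of 7 clock genes that peak together ran from 229.8 to 321 CPM in WT and from 228 to 332 CPM in KO, and that of 5 genes of the opposite phase from 40.0 to 70.8 CPM and from 45.3 to 58.0 CPM. The part of the clock in the spread was not tested.

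**Figure D4:**
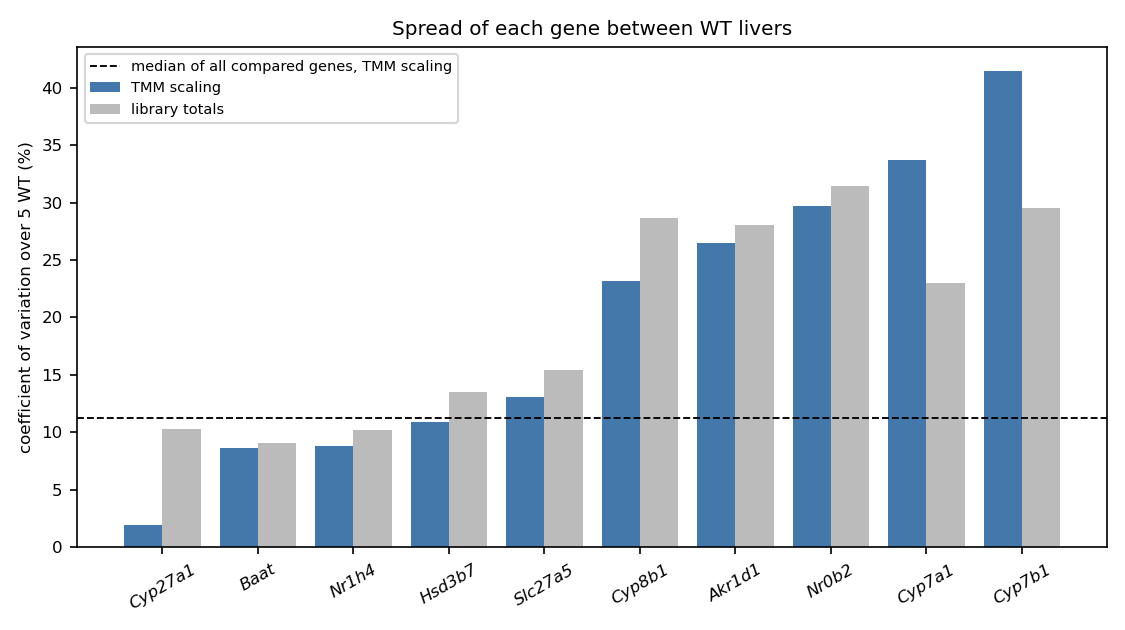
Coefficient of variation of each gene over the 5 WT livers, in percent, with TMM scaling (blue) and with library totals (grey); the dashed line is the median of all compared genes with TMM scaling. Cyp8b1, Akr1d1, Nr0b2, Cyp7a1 and Cyp7b1 stand above 20% with both scalings.

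For levels between genes, CPM per kilobase of merged exons was used. In WT livers Slc27a5 was highest with a mean level of 214, followed by Cyp8b1 with 200.3, Hsd3b7 with 119, Baat with 103, Cyp27a1 with 95.7, Nr1h4 with 39.2, Cyp7b1 with 36.7, Akr1d1 with 31.9, Nr0b2 with 27.8 and Cyp7a1 with 18.5 CPM per kilobase. The rate-setting enzyme thus had the lowest mean level of the 10 on this scale. Neighbours kept this order in all 8 libraries for Cyp8b1 above Hsd3b7 and for Cyp27a1 above Nr1h4, a step of 2.26-fold to 2.74-fold in WT. Every other neighbouring pair changed places in 1 to 3 libraries. The order of Cyp8b1 above Hsd3b7 rests on the merged length. For Hsd3b7 this was 2769 bases, against 1828 bases in its longest protein-coding transcript. Cyp8b1 had 1950 bases on both measures, and a shorter length raises a gene on this scale.

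Since SHP represses both hydroxylase genes and FXR induces SHP, 4 pairs were compared over the 8 livers on log2 CPM, with exact permutation p-values adjusted over the 4 pairs. None passed the threshold. For Cyp7a1 with Nr0b2, Pearson's r was 0.302 (exact permutation p = 0.463, adjusted 0.925) and Spearman's rho 0.286 (exact permutation p = 0.501, adjusted 1.0). After the 2 livers farthest from the median of Cyp7a1 were left out, r was -0.236. Leaving out 1 library at a time gave an r from 0.148 to 0.844, with an unadjusted exact permutation p from 0.0173 to 0.775. The highest r was without WT 3. For Cyp8b1 with Nr0b2, r was 0.356 (exact permutation p = 0.388, adjusted 0.925) and rho -0.0952 (exact permutation p = 0.840, adjusted 1.0), and r was -0.788 without the 2 farthest livers, KO 1 and WT 1. Cyp7a1 with Cyp8b1 gave an r of 0.00206 (exact permutation p = 0.997, adjusted 0.997) and a rho of 0.0 (exact permutation p = 1.0, adjusted 1.0), with r at 0.457 after leaving out the 2 farthest. Nr1h4 with Nr0b2 gave an r of -0.0354 (exact permutation p = 0.945, adjusted 0.997) and a rho of -0.310 (exact permutation p = 0.462, adjusted 1.0), with r at -0.423 after leaving out the 2 farthest. With each group centred on its mean, r was 0.193, 0.271, -0.250 and -0.248 for the 4 pairs in this order. A negative relation of SHP to its target genes was thus not detectable with 8 livers.

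As a description, the genes of at least 10 CPM whose log2 levels followed Cyp7a1, Cyp8b1, Cyp7b1 and Nr0b2 most closely over the 8 livers were listed, out of 6602. Cyp8b1 was closest to Cyp2c40, a cytochrome P450 gene, with r of 0.946, then to Tmem220 with 0.938 and Acad8 with 0.902. Cyp7b1 was closest to Timm9 with 0.965, Hopx with 0.964 and Ugt2b5, a glucuronosyltransferase gene, with 0.937. For Cyp7a1 the closest were Sdhaf2 with 0.899, Rsrc1 with 0.897 and Mesd with 0.883, and for Nr0b2 they were Rfk with 0.915, Cyp3a13 with 0.903 and Paox with 0.894. These are the highest of many values over 8 points and share libraries and scaling.

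The rest of the pathway was read from lists of other synthesis enzymes, regulators, and transporters with FXR target genes. In each list 0 genes passed an edgeR adjusted p of 0.05. Among 11 tested other synthesis enzymes, 1 was lower and 1 higher in KO livers at an unadjusted p under 0.05, where 2.33% and 2.41% of all tested genes were. Among 12 tested regulators 2 were higher and 0 lower, and among 9 tested transport genes 1 was lower and 0 higher. The median log2 fold changes of the lists were 0.02, 0.02 and -0.12.

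Fgfr4, the receptor through which FGF15 represses Cyp7a1, had the smallest p of these lists. WT livers had 16.8, 18.7, 15.5, 17.2 and 16.3 CPM and KO livers had 25.4, 20.8 and 22.3 CPM. Every KO liver was above every WT liver, as for 1.89% of tested genes. The log2 fold change was 0.44 ± 0.10 (SE), with a 95% interval of 0.21 to 0.66 and an unadjusted edgeR p of 0.00139, but the edgeR adjusted p was 0.415. DESeq2 gave an adjusted p of 0.0495 and limma-voom 0.456. Without KO 1 the log2 fold change was 0.35 (edgeR adjusted p = 1.0). Klb, the co-receptor of FGFR4, averaged 16.8 CPM in WT (SD 2.56, n = 5) and 16.8 CPM in KO (SD 7.65, n = 3), a log2 fold change of 0.00 ± 0.26 (SE). Fgf15 itself had 0 counts in all 8 libraries, which allows a level of up to 0.0839 to 0.118 TMM-scaled CPM in each.

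Nr1i2, the gene of the bile acid and xenobiotic sensor PXR, also had every KO liver above every WT liver, as for 1.89% of tested genes. Its levels were 60.7, 61.3, 64.3, 60.1 and 63.1 CPM in WT and 70.6, 69.9 and 72.5 CPM in KO. Both groups were tight, and the log2 fold change was small, at 0.20 ± 0.08 (SE; edgeR adjusted p = 0.954). The activators of Cyp7a1 and Cyp8b1 had fold changes close to 0. Nr5a2 (LRH-1) had a log2 fold change of 0.08 ± 0.15 (SE) with a 95% interval of -0.26 to 0.42, and Hnf4a had 0.00 ± 0.17 (SE) with an interval of -0.38 to 0.39. Mafg, a repressor that FXR induces, had 0.17 ± 0.11 (SE).

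Cyp2c70, the mouse enzyme that makes muricholic acids, had 12.1, 16.7, 12.6, 14.9 and 10.6 CPM in WT and 43.9, 16.8 and 17.2 CPM in KO. Every KO liver was above every WT liver, as for 1.89% of tested genes, but KO 2 exceeded WT 2 by less than 0.1 CPM. KO 1 carried the difference. The unadjusted edgeR p was 0.0146 and the adjusted p 0.882. The log2 fold change of 0.96 ± 0.32 (SE) was 0.34 without KO 1, with an unadjusted edgeR p of 0.0690. Cyp46a1, the cholesterol 24-hydroxylase known mainly from neurons, had 6.50, 5.53, 4.08, 5.35 and 5.09 CPM in WT and 1.35, 3.74 and 3.27 CPM in KO. All KO livers were below all WT livers, as for 1.82% of tested genes. Its log2 fold change was -0.93 ± 0.29 (SE), and -0.61 without KO 1, with an unadjusted edgeR p of 0.00937 and an adjusted p of 0.882 over all 8 libraries. Acot8, a peroxisomal thioesterase, had 0.17 ± 0.14 (SE).

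Of the transporters, Abcb11, the canalicular bile salt export pump and an FXR target, was at 186 CPM in WT (SD 28.5, n = 5) and 183 CPM in KO (SD 11.7, n = 3), with a 95% interval of the log2 fold change of -0.31 to 0.27. Slc10a1, the uptake transporter NTCP, had 489, 472, 380.02, 401 and 411 CPM in WT and 269, 386 and 408 CPM in KO. KO 1 was again the lowest library. Its log2 fold change was -0.28 ± 0.15 (SE), with an unadjusted edgeR p of 0.0958. Abcc3, a basolateral export pump, had 159, 171, 134, 151 and 212 CPM in WT and 115, 150.3 and 116 CPM in KO. KO 2 lay within the WT range. On the log2 scale the difference was -0.38 ± 0.16 (SE), with an unadjusted edgeR p of 0.0368, which was 0.115 without KO 1, and an adjusted p of 1.0. Abcc4 had -0.42 ± 0.20 (SE) at no more than 73 counts in a library. Slc51b, an FXR target that exports bile acids to blood, had no more than 46 counts in a library and its partner Slc51a 0 counts in all 8.

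**Figure D5:**
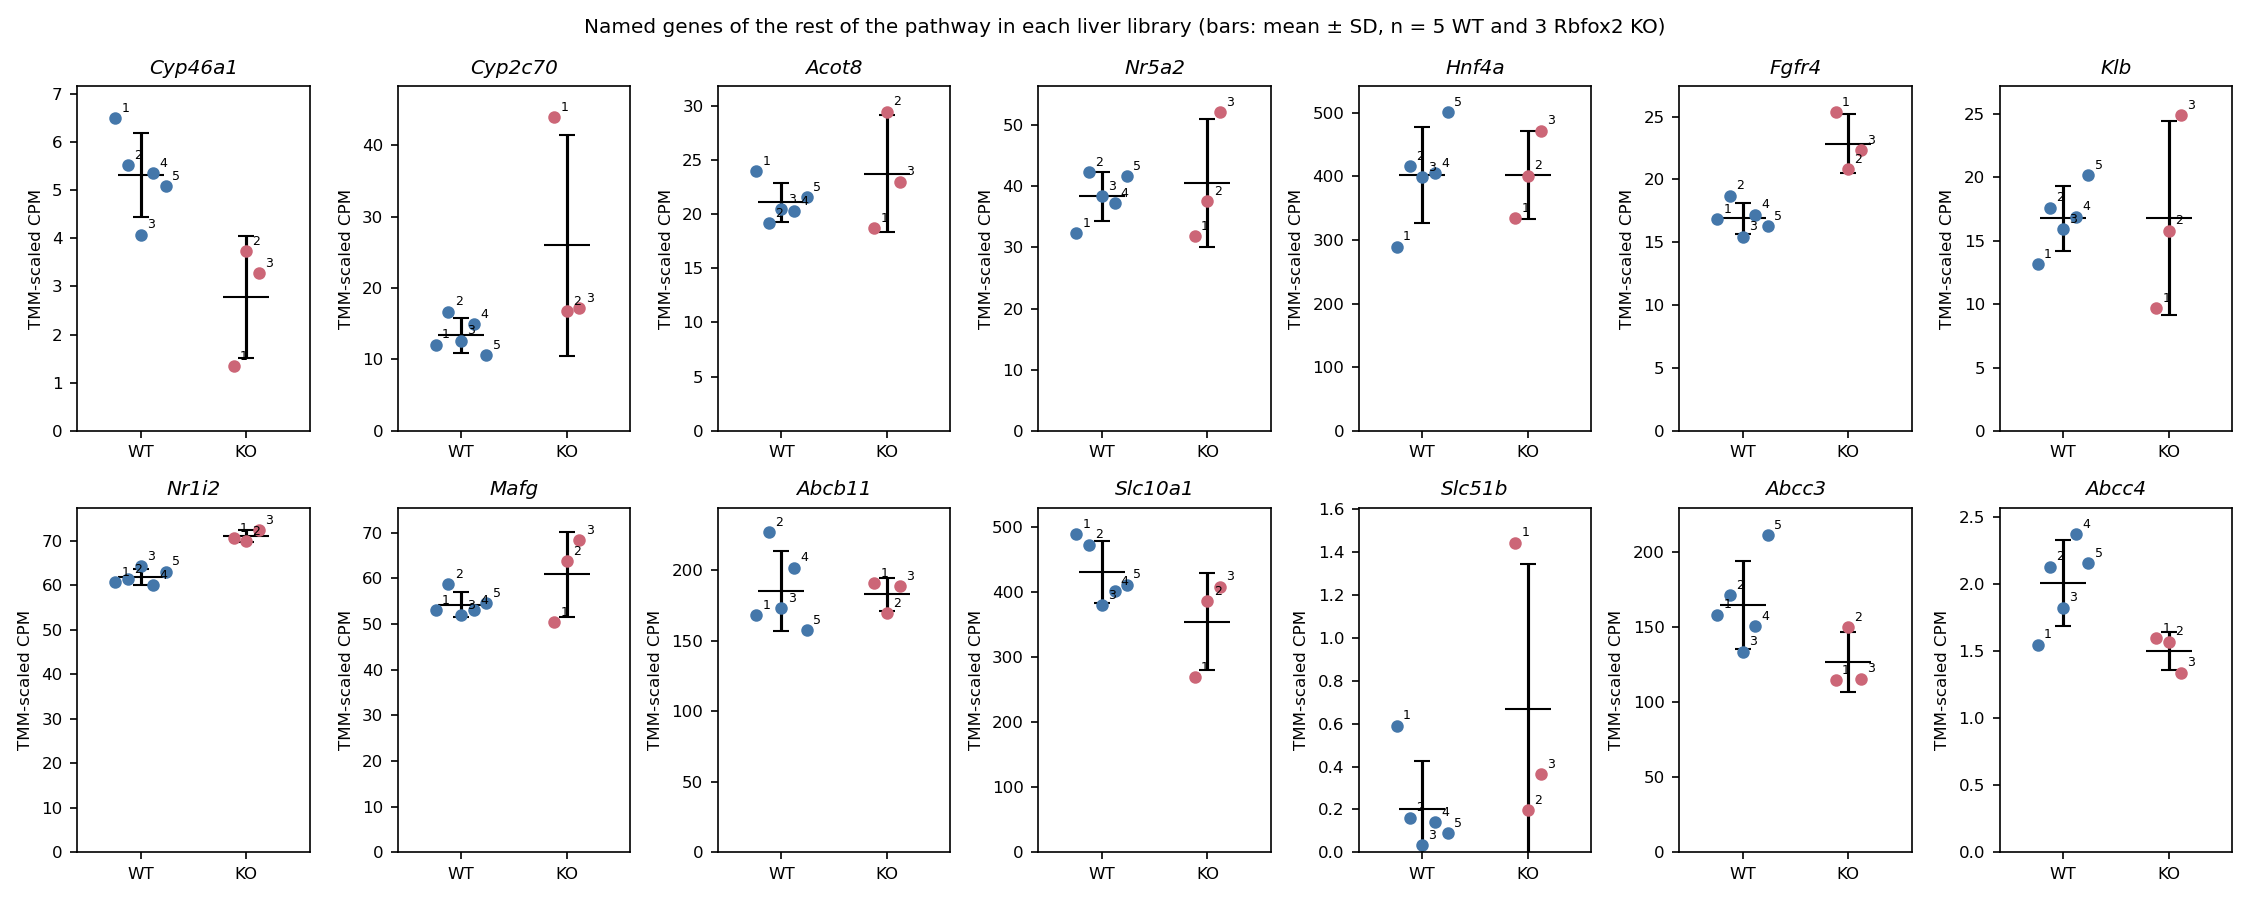
Levels of the 14 named genes of the rest of the pathway in every library, in TMM-scaled CPM on linear axes from 0, with 5 WT (blue) and 3 Rbfox2 KO (red) libraries numbered and bars for mean ± SD. Groups do not overlap for Cyp46a1, Cyp2c70, Fgfr4 and Nr1i2, where 3.71% of all tested genes did not overlap. The panels include the 3 genes of each list with the smallest unadjusted p. Rbfox2 KO 1 sets the KO mean of Cyp2c70 and Slc51b, and the lower bars of Slc51b are cut by the axis.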

How the data were processed

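Poly(A) RNA-seq libraries of 8 livers were grouped by genotype label. The authors aligned 100 bp paired reads to GRCm38 with TopHat2 2.0.11 as first-strand libraries and counted them per Ensembl gene with featureCounts, and CASAVA 1.8.4 is named in the submitters' processing notes. The deposited values are raw counts. The strand setting of the counting, and its handling of multiply aligned reads, are not given in the sources used here.

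Genes were filtered with filterByExpr (14654 of 46078 kept), scaled by TMM and compared with edgeR 4.0.16 in R 4.3.3 (quasi-likelihood F test, robust fit), with Benjamini-Hochberg adjustment at 0.05 over all tested genes and genotype as the only term. The SE came from the F statistic and the 95% interval from its moderated degrees of freedom. Ratios had 0.5 added to each count. Alternatives were other scalings and filters, DESeq2 1.42.0, voom of limma 3.58.1, a non-robust fit, a block and leaving out each library. The procedure was tested on simulated data. The alternatives for the spread over WT and for single genes of the rest of the pathway were chosen after the data were seen, as were the promoter letters.

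A floor of 3 counts per library was taken, scaled as the levels were, and floors cover counting error only. No 2 libraries of a group agreed within sampling noise (chi-square per degree of freedom 45.7 to 350.0). The labels do not say that the samples of a group are separate animals or litters, so p-values measure the spread between these samples, which may be technical. The 10 genes and all lists were chosen with earlier results of these data known. Named were the 10 genes, Rbfox2, 7 genes of the other lists (Cyp2c70, Nr5a2, Hnf4a, Fgfr4, Klb, Abcb11 and Slc10a1), in each list any gene past the threshold and the 3 with the smallest unadjusted p, and the 3 genes most like each of Cyp7a1, Cyp8b1, Cyp7b1 and Nr0b2.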

Additional observations from a re-analysis of the deposited data

Results flagged for a closer look

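Of 30 values tested in the 5 WT livers for 1 library set apart from the rest, 1 passed the critical gap over range of 0.71, where chance alone gives 1.5. It was the level of Slc51b in WT 1, at 0.591 CPM against 0.0351 to 0.162 CPM in the other 4 WT livers, a gap of 0.772 of the range. These levels are near the floor of 3 counts. WT 3, at 0.0351 CPM, was under its floor of 0.105 CPM, and WT 5 was at its floor of 0.0887 CPM. In KO livers Slc51b had 1.44, 0.197 and 0.364 CPM.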

How the results depend on the processing

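Of 170 log2 fold changes of the 10 genes under alternatives, 162 kept their direction, none passed the threshold and 8 reversed. Cyp7b1 reversed with the replicate block (-0.0202) and without WT 1, WT 2, WT 5 or KO 2 (-0.0686, -0.0414, -0.0259 and -0.381; range over left-out libraries -0.381 to 0.322), and Slc27a5 with library totals (0.0259) and without WT 1 or KO 1 (0.00067 and 0.0438; range -0.137 to 0.0438). Counts of members past the adjusted p were 0 under every alternative. Over all genes, 6 passed with no filter, 59 by DESeq2 and 1 at an adjusted p of 0.1, and DESeq2 called 1 of 12 regulators, Fgfr4. Leaving out each library in turn gave 0 genes each time. The ratios ranged over the left-out libraries from -0.158 to 0.484 (Cyp8b1 to Cyp7a1), -0.0833 to 0.881 (Cyp7b1 to Cyp7a1), 0.125 to 0.593 (Cyp27a1 to Cyp7a1), -0.180 to -0.0274 (Baat to Slc27a5) and -0.0925 to 0.264 (Nr0b2 to Nr1h4). With group medians, Cyp7b1 to Cyp7a1 was -0.0149 and Nr0b2 to Nr1h4 -0.0155. The correlations ranged from 0.148 to 0.844 (Cyp7a1 with Nr0b2), -0.263 to 0.531 (Cyp8b1 with Nr0b2), -0.227 to 0.143 (Cyp7a1 with Cyp8b1) and -0.606 to 0.175 (Nr1h4 with Nr0b2). Without the 2 farthest livers the first was -0.236 and the second -0.788, rho of the second was -0.0952, and the third was -0.279 with library totals and -0.250 with groups centred. The cause of these reversals was not tested. With 3 KO livers, differences within the printed intervals were not detectable.

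The labels number samples in both groups. Same-numbered livers deviated from their group means with correlations of 0.163, 0.0484 and 0.170. Each KO liver correlated best with a WT liver of another number (0.248, 0.371 and 0.252), so the numbers were not taken as pairs. With the replicate block the median of the 10 genes was -0.28, and 0 genes passed the adjusted p. All 10 were below 0, as were 49.4% of all tested genes. Under an unadjusted p of 0.05 was 1 of the 10, Cyp7a1 at -0.74 (edgeR p of 0.000485, adjusted p = 0.380). So were 739 of 14654 tested genes. WT livers numbered above 3 have no KO partner, so with the block the genotype difference rests on 3 same-numbered pairs. The smallest p that sign flips of 3 pairs allow is 0.25. Since the numbers were not taken as pairs, no conclusion is drawn from the edgeR p of Cyp7a1 with the block. The log2 ratio of Nr0b2 to Nr1h4 with the block was -0.0386.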
